A study of Mus musculus with 8 samples.

Results

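The genes described here encode classical and atypical cadherins, protocadherins and claudins, the transmembrane proteins by which cells hold to each other. They were taken by symbol from GENCODE M21, as symbols that begin with Cdh or Cldn and a digit or with Pcdh, without the vascular genes Cdh5 and Cldn5. The rule used no measured value. Of 126 annotated genes with such symbols, 29 had a row among the 13637 genes of the table, and the other 97 were not analysed here. The 29 members were 12 cadherins, 6 non-clustered protocadherins, 6 protocadherins of the gene clusters on chromosome 18, and 5 claudins.

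Cadherins bind the same or a related cadherin on the next cell through repeated extracellular domains that need calcium. The tails of classical cadherins hold beta-catenin or plakoglobin and p120-catenin, and alpha-catenin links this complex to actin at adherens junctions. In the heart, N-cadherin joins cardiomyocytes, and E-cadherin is the cadherin of epithelia. Protocadherins lack the catenin-binding tail, and those of the gene clusters give neurons combinations of surface proteins for self-recognition. Claudins form the strands of tight junctions, which seal epithelia and endothelia and set which ions can pass between cells.

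Hearts of mouse embryos at embryonic day 9.5 were compared by RNA-seq of polyA RNA. The tested genotype was Bmp2GOF;Nkx2.5-Cre (GOF), in which a gain-of-function allele of Bmp2, a secreted BMP ligand, was combined with a Cre driven by Nkx2-5 sequence in cardiac progenitors and their descendants. It was set against WT, for which the labels name no allele, with 4 samples in each group. The labels do not give the number of embryos per sample, and nothing says that samples came from separate embryos, so each p-value rests on sample-to-sample spread that may be technical. Values are in normalized reads, the authors' scale, on which 3 reads correspond to 0.199 to 0.282. The whole reads behind the values added up to 13182009 to 17927674 in GOF samples and to 12287069 to 16697480 in WT samples. Bmp2 stood at 95.8, 102, 108 and 91.2 normalized reads in GOF samples 1 to 4, against 61.7, 59.6, 54.4 and 49.5 in WT samples 1 to 4. All 10 cardiomyocyte markers had a row. Of these, 4 were higher and 2 were lower, and their summed levels were 35120 to 41470 in GOF and 33050 to 37540 in WT.

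Changes were tested with limma on log2(value + 1), and a gene passed where its p, adjusted by Benjamini-Hochberg across the table of 13637 genes, was under 0.05. Among all of them 56.3% passed, with 28.2% higher and 28.2% lower in GOF. Counts of passing genes in the marker and junction gene lists are to be read against these shares. Of the 29 members 11 passed, 6 higher and 5 lower, with a median log2 change of 0.10 against -0.002 over all genes. Without GOF sample 2 and WT sample 3, which stand apart for several members, the number was also 11, but Cdh24 was lost and Cdh11 gained, and 6848 genes passed in all. Many members were expressed at low levels. Of the 16 with a mean of at least 5 normalized reads 9 passed (56.2%), where 60.6% of all such genes did. Of the 13 under that level 2 passed, where 37.4% of all such genes did. The 12 cadherins held 7 of the 11 changes, with 5 higher and 2 lower, a share of 58.3% against 56.3% of all genes. Of these, Cdh16 and Cdh10 met the table's minimum in every GOF sample but not in every WT sample, and without them 9 of 27 members passed (4 higher, 5 lower), among them 3 higher and 2 lower cadherins. Of the 6 non-clustered protocadherins 2 were lower, of the 6 clustered protocadherins 1 was lower, and of the 5 claudins 1 was higher. GOF and WT values did not overlap in 9 of 29 members (31.0%), against 50.9% of all genes. The table holds only genes with at least 1 normalized read in at least 4 columns, so these counts describe the members above that level and not the families.

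**Figure D1:**
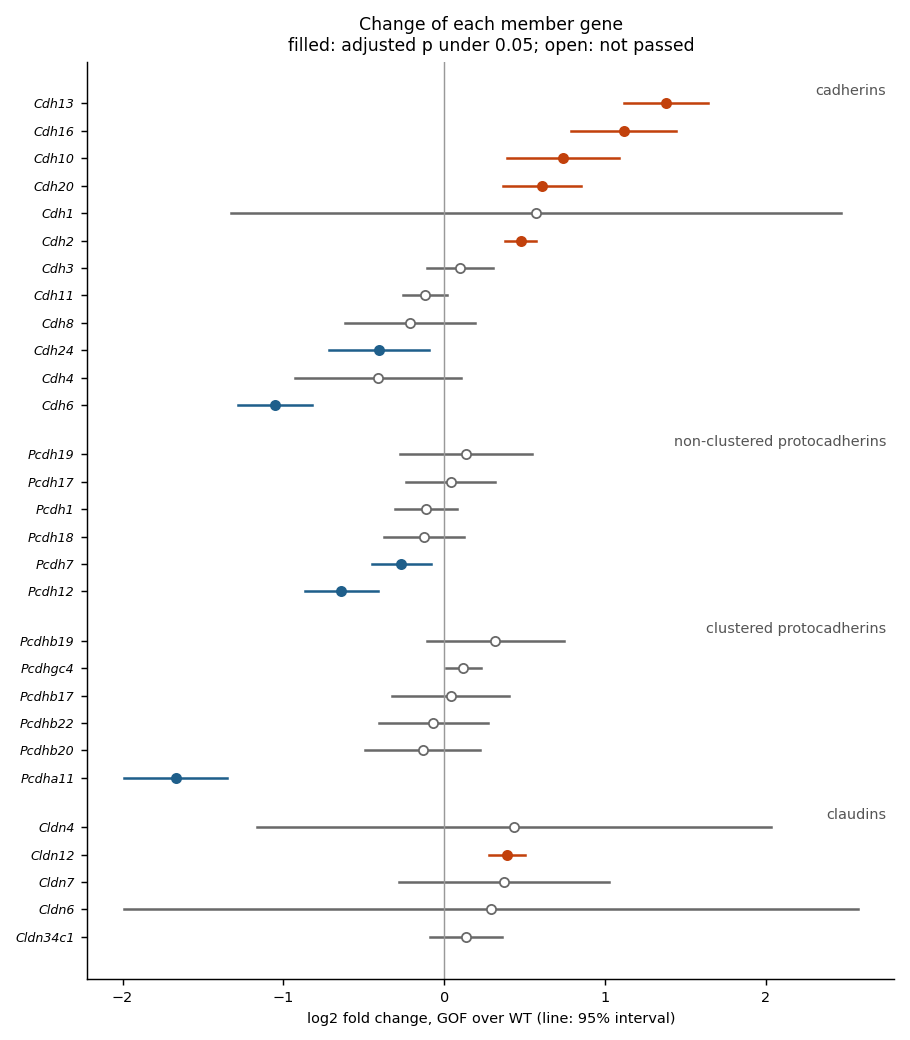
Log2 fold change (GOF over WT, horizontal axis) of each of the 29 member genes, with its 95% interval from limma, grouped by family. Filled points passed the adjusted p threshold. Pcdha11 (-1.67) and Cdh6 (-1.05) lie farthest to the left and Cdh13 (1.38) and Cdh16 (1.12) farthest to the right (at a pseudocount of 1), while the widest intervals belong to Cdh1, Cldn4 and Cldn6.

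N-cadherin, the member with the highest level per kilobase, rose in GOF. Cdh2 (N-cadherin, chromosome 18, 16588877 to 16809246, minus strand, GRCm38) stood at 561, 633, 627 and 589 normalized reads in GOF samples 1 to 4, against 444, 437, 435 and 416 in WT samples 1 to 4. Every GOF value lay above every WT value. The group levels were 603 ± 33.9 in GOF and 433 ± 11.8 in WT (SD, n = 4 each), a log2 change of 0.47 ± 0.05 (SE, limma adjusted p = 4.52e-07). In whole-heart RNA a change in the number of cells of a type cannot be told apart from a change in RNA per cell. Per kilobase of annotated exon, the level of Cdh2 was 74.7 in GOF and 53.7 in WT, the highest of the 29 members in both groups. Cdh2 made up 69.4% to 70.1% of the summed per-kilobase level of the 12 cadherins in GOF samples and 61.8% to 66.7% in WT samples. That sum was 99.2 to 113 in GOF and 80.8 to 86.3 in WT. Among 12 markers of cushion mesenchyme, a tissue that also carries N-cadherin, 8 were higher and 1 was lower, and their summed level was 1822 to 2208 normalized reads in GOF against 1404 to 1459 in WT. Most of that sum was Vim, with means of 1298 in GOF and 875 in WT. Prrx2 (-0.23) was the lower gene, and Prrx1, Msx1 and Col3a1 did not pass. Among the cardiomyocyte markers Myh7 (0.62), Ryr2 (0.37), Nkx2-5 (0.35) and Myl7 (0.33) rose on the log2 scale, and Tnni1 (-0.26) and Myh6 (-0.16) fell. The part of either list in the rise of Cdh2 was not tested.

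The other type I cadherins did not pass the test. Cdh3 (P-cadherin, first described in placenta) was next in level per kilobase among the 12 cadherins, which leave out Cdh5, with 16.7 ± 1.95 (SD) in GOF and 15.6 ± 1.67 (SD) in WT, n = 4 each. It stood at 63.2, 84.0, 74.2 and 71.3 normalized reads in GOF samples 1 to 4, against 70.5, 61.9, 62.8 and 77.6 in WT samples 1 to 4. The groups overlapped, and the log2 change of 0.10 had a 95% interval of -0.11 to 0.30 (limma adjusted p = 0.39). Cdh4 (R-cadherin, known from the retina) was near the floor, at 0.824 to 3.23 in GOF and 1.66 to 2.68 in WT. Its log2 change of -0.41 did not pass (limma adjusted p = 0.16). When GOF sample 1, the highest of all 8, was left out it was -0.68 (limma adjusted p = 0.00201). Cdh4 reached 1 normalized read in all 4 WT samples and in 2 GOF samples. It thus met the table's minimum on the WT samples alone, and its fall is limited by that. Cdh1 (E-cadherin) varied widely within both groups and is described with the claudins.

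Of the 6 type II cadherins 2 rose, 2 fell and 2 did not pass. Cdh6 (K-cadherin, known from the developing kidney; chromosome 15, 13028701 to 13173675, minus strand) stood at 4.79, 3.49, 4.35 and 3.75 normalized reads in GOF samples 1 to 4, against 8.72, 9.32, 10.05 and 10.03 in WT samples 1 to 4. All GOF values lay below all WT values. The log2 change was -1.05 ± 0.11 (SE, limma adjusted p = 9.15e-07). Cdh20 was at 6.35, 8.55, 7.97 and 7.05 in GOF samples 1 to 4 and at 5.12, 4.61, 4.32 and 4.15 in WT samples 1 to 4, again without overlap, and rose by 0.61 (log2, limma adjusted p = 0.000302). Cdh10, which is known mainly from the brain, was scarce, at 2.14, 3.15, 2.66 and 1.75 in GOF samples 1 to 4 and 1.45, 1.04, 0.767 and 0.918 in WT samples 1 to 4. It rested on 145 reads over the GOF group and 61 over the WT group, and rose by 0.74 (log2, limma adjusted p = 0.00123), or by 1.15 with a pseudocount of 0.1. It reached 1 normalized read in all 4 GOF samples and in 2 WT samples, so it met the table's minimum on the GOF samples alone, and its call is limited by that.

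Cdh24 was lower by a narrower margin. It stood at 10.4, 6.33, 5.89 and 6.77 normalized reads in GOF samples 1 to 4, against 11.3, 9.75, 8.44 and 10.1 in WT samples 1 to 4. GOF sample 1 lay inside the WT range, and the other GOF samples lay below it. The log2 change of -0.41 passed (limma adjusted p = 0.0274), but not in fits that left out GOF sample 2, 3 or 4, nor in those without WT sample 1, 2 or 4 (limma adjusted p 0.0553 to 0.0851). Cdh11 (OB-cadherin, a cadherin of mesenchyme and bone) was next after Cdh3 in level per kilobase among the same 12, at 5.65 in GOF and 6.13 in WT. Its values were 44.6, 55.8, 53.4 and 47.5 normalized reads in GOF samples 1 to 4 and 56.3, 54.9, 52.3 and 54.6 in WT samples 1 to 4. The groups overlapped and the log2 change of -0.12 did not pass (limma adjusted p = 0.131), but leaving out GOF sample 2 gave -0.17 (limma adjusted p = 0.032). Cdh8, a cadherin of the nervous system, was at 0.578 to 1.87 in GOF and 1.25 to 2.28 in WT and did not pass (limma adjusted p = 0.369).

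Both atypical cadherins in the table rose. Cdh13 encodes T-cadherin, which is held in the membrane by a lipid anchor, has no catenin-binding tail and binds adiponectin. Cdh13 (chromosome 8, 118283733 to 119324921, plus strand) stood at 29.0, 36.7, 37.6 and 33.7 normalized reads in GOF samples 1 to 4, against 11.9, 10.8, 16.3 and 11.6 in WT samples 1 to 4. The groups were far apart, with means of 34.2 ± 3.88 in GOF and 12.6 ± 2.52 in WT (SD, n = 4 each). The log2 change of 1.38 ± 0.12 (SE, limma adjusted p = 1.18e-06) was the largest rise among the 29 members at a pseudocount of 1, and it was 1.44 at a pseudocount of 0.1. Cdh16 (Ksp-cadherin, known from kidney tubules) was at 1.94, 2.93, 3.12 and 2.79 in GOF samples 1 to 4 and at 0.739, 0.596, 0.525 and 0.918 in WT samples 1 to 4. It rested on 159 reads in GOF and 39 in WT, with a log2 change of 1.12 (limma adjusted p = 1.64e-05), or 1.82 with a pseudocount of 0.1, where it exceeded that of Cdh13. Cdh16 reached 1 normalized read only in the GOF samples, so it entered the table through the group in which it was high, and its difference was built into the filter. Cdh16, Cdh13, Cdh11, Cdh8, Cdh3 and Cdh1 are the 6 members on chromosome 8, and their log2 changes ranged from -0.21 to 1.38.

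**Figure D2:**
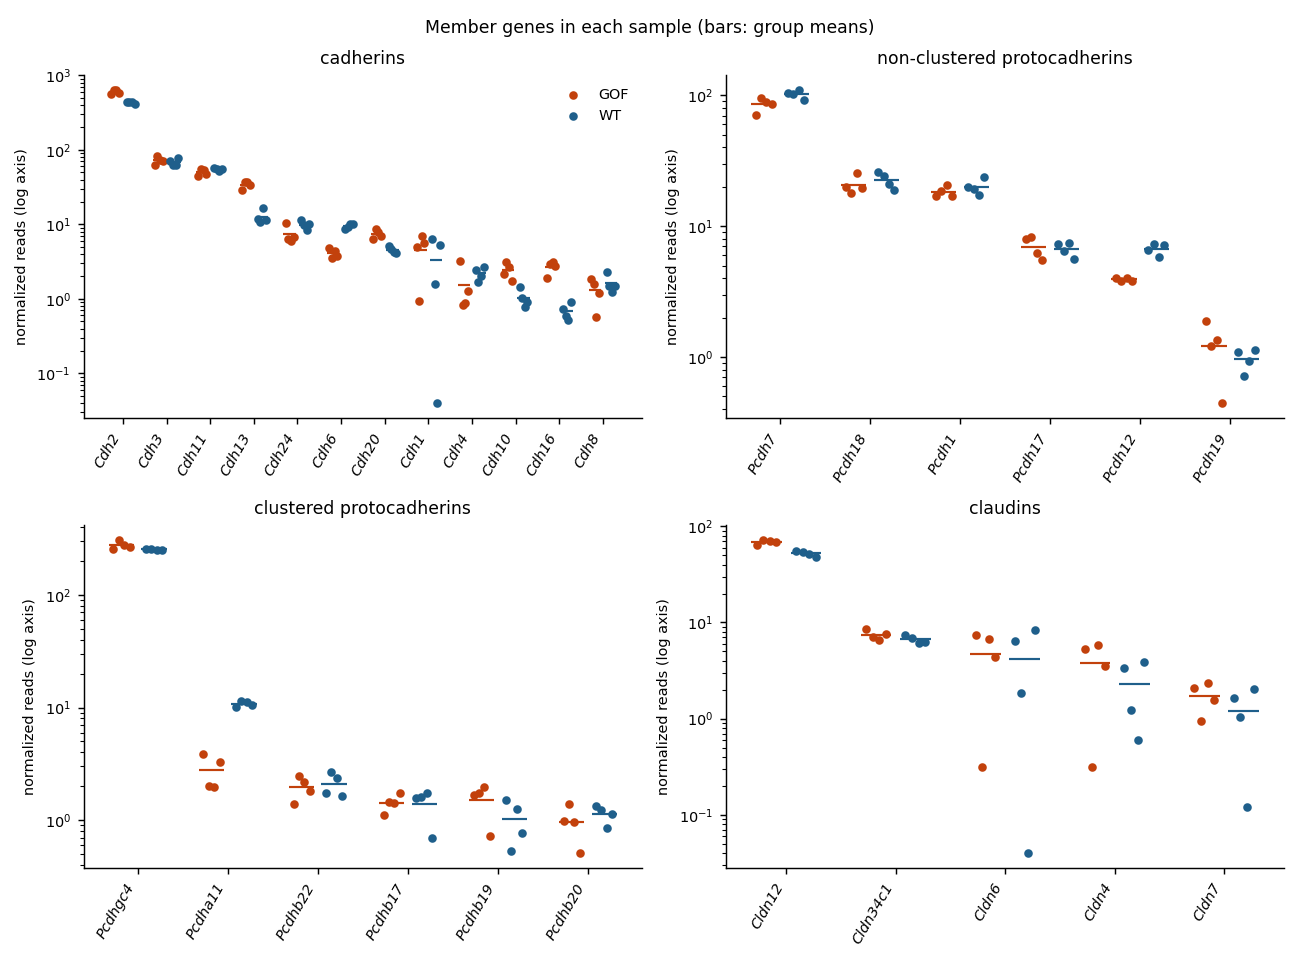
Normalized reads (vertical log axis) of the 29 member genes in each of the 4 GOF samples (orange, left of each pair) and 4 WT samples (blue), with bars at group means and genes ordered by level within a family. Cdh2, Cdh13, Cdh6 and Pcdha11 show groups apart, while Cdh1, Cldn4, Cldn6 and Cldn7 spread widely within both groups.

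Of the non-clustered protocadherins 2 passed, and both fell. Pcdh7, named brain-heart protocadherin for the tissues in which it was first found, had the highest level of this family per kilobase and stood at 71.0, 95.1, 88.9 and 85.5 normalized reads in GOF samples 1 to 4 against 104, 103, 110 and 92.4 in WT samples 1 to 4. GOF sample 2 lay above WT sample 4, so the groups overlapped. The log2 change was -0.27 ± 0.08 (SE, limma adjusted p = 0.0178), and the call was lost without WT sample 3 (limma adjusted p = 0.0507). Pcdh12, an endothelial protocadherin also called VE-cadherin-2, stood at 4.04, 3.84, 4.04 and 3.82 in GOF samples 1 to 4, against 6.60, 7.31, 5.77 and 7.16 in WT samples 1 to 4. All GOF samples lay below all WT samples, and the log2 change was -0.64 ± 0.11 (SE, limma adjusted p = 0.000118).

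The vascular cadherin gene left out by the rule was also lower. Cdh5 (VE-cadherin) stood at 141.5, 173, 164.5 and 132 normalized reads in GOF samples 1 to 4, against 177.5, 191, 174 and 176 in WT samples 1 to 4. Its log2 change was -0.24 (limma adjusted p = 0.0204), and it did not pass without GOF sample 1 (limma adjusted p = 0.0739), nor when WT sample 2 was left out (limma adjusted p = 0.0568). Of 11 endothelial and endocardial markers 3 were higher and 5 lower, and their summed level was 775 to 902 in GOF against 973 to 1030 in WT. Their part in the lower Pcdh12 was not tested. Cldn5, the claudin of endothelium, was at 3.47 to 4.85 in GOF and 3.05 to 4.17 in WT and did not pass (limma adjusted p = 0.274).

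The remaining non-clustered protocadherins did not pass. Pcdh18 stood at 19.8, 17.8, 25.3 and 19.5 normalized reads in GOF samples 1 to 4 and at 26.1, 24.3, 20.95 and 18.8 in WT samples 1 to 4, a log2 change of -0.12 (limma adjusted p = 0.383). Pcdh1 was at 17.1, 18.7, 20.6 and 16.9 in GOF samples 1 to 4 and at 19.8, 19.2, 17.4 and 23.5 in WT samples 1 to 4, a log2 change of -0.11 (limma adjusted p = 0.303). In both genes the groups overlapped, and the 95% intervals of -0.38 to 0.13 for Pcdh18 and -0.31 to 0.08 for Pcdh1 held 0. Pcdh17 was at 5.47 to 8.32 in GOF and 5.62 to 7.39 in WT, and Pcdh19, an X-linked gene known from epilepsy in people, at 0.447 to 1.87 in GOF and 0.721 to 1.14 in WT.

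The clustered protocadherins gave the largest fall among the 29 members. Alpha and gamma protocadherin transcripts each join a variable exon to constant exons shared by the whole cluster. GENCODE M21 annotates 14 alpha, 22 beta and 22 gamma genes, of which 1 alpha, 4 beta and 1 gamma had a row. The alpha row carries the symbol Pcdha11 (ENSMUSG00000007440, chromosome 18, 37005203 to 37187657, plus strand), and its exons overlap those of 13 other annotated genes on the same strand, none of which had a row. Its reads therefore cannot be assigned to the Pcdha11 variant alone. This row stood at 3.90, 2.02, 1.96 and 3.27 normalized reads in GOF samples 1 to 4, against 10.1, 11.4, 11.1 and 10.5 in WT samples 1 to 4. The groups were far apart, with means of 2.79 ± 0.957 in GOF and 10.8 ± 0.569 in WT (SD, n = 4 each). The log2 change was -1.67 ± 0.15 (SE, limma adjusted p = 2.41e-07), from 164 reads in GOF and 631 in WT. Of 8 neuronal and neural tube markers 0 were higher and 3 were lower, and their summed level was 244 to 307 in GOF and 272 to 290 in WT. Most of that sum was Nes, with means of 258 in GOF and 248 in WT. The 3 lower genes were Stmn2 (-0.82), Map2 (-0.73) and Dcx (-0.57), each at low levels and without overlap. Dcx was at 0.378 to 1.04 in GOF and 1.29 to 1.91 in WT, and Stmn2 at 0.849 to 1.66 in GOF and 2.22 to 3.49 in WT. Both reached 1 normalized read in every WT sample but not in every GOF sample. They thus met the table's minimum on the WT samples alone, and their falls are limited by that. The part of neuronal and neural tube markers in the lower alpha row was not tested.

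The gamma row had the highest level per kilobase of the protocadherins. It carries the symbol Pcdhgc4 (ENSMUSG00000023036, chromosome 18, 37815079 to 37841873, plus strand), and its exons overlap those of 25 other annotated genes on the same strand, none with a row. It stood at 254, 306, 278 and 268 normalized reads in GOF samples 1 to 4, against 257, 256, 250.2 and 252 in WT samples 1 to 4. GOF sample 1 lay inside the WT range, and the other GOF samples lay above it. The log2 change of 0.12 with a 95% interval of 0.01 to 0.23 missed the threshold (limma adjusted p = 0.0533). It passed without GOF sample 1 (0.16, limma adjusted p = 0.00624) and when genes with a mean under 5 were left out (limma adjusted p = 0.0494). At 49.4 normalized reads per kilobase in GOF and 45.3 in WT, this row was second to Cdh2 among the 29 members, although the exon length of a row that may hold several genes is uncertain.

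The 4 beta protocadherins, which are single-exon genes with closely related sequences, were all under 3 normalized reads in every sample. None passed in limma, and 0 had an unadjusted p under 0.05. Pcdhb22 was at 1.39, 2.47, 2.20 and 1.82 in GOF samples 1 to 4 and 1.75, 2.67, 2.38 and 1.65 in WT samples 1 to 4. Pcdhb17 was at 1.12 to 1.75 in GOF and 0.698 to 1.74 in WT, and Pcdhb20 at 0.516 to 1.39 in GOF and 0.848 to 1.33 in WT. Pcdhb19 was at 0.722 to 1.96 in GOF and 0.533 to 1.51 in WT, with no call at a log2 change of 0.32 (limma adjusted p = 0.192), which was 0.49 without GOF sample 4 (limma adjusted p = 0.0414). Reads of near-identical beta genes cannot be assigned with certainty.

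Of 12 genes known to act on the protocadherin clusters 5 passed, 1 higher and 4 lower, where 56.3% of all genes passed. The 12 encode the insulator protein CTCF, cohesin and its loader and release factor, and chromatin repressors, and had a median log2 change of -0.05. Ctcf, which brings cluster promoters to their enhancers, stood at 107, 103, 99.2 and 105 normalized reads in GOF samples 1 to 4, against 124.5, 124, 114 and 122 in WT samples 1 to 4 (log2 change -0.23, limma adjusted p = 0.000424). Smchd1, a repressor of the clusters, changed by -0.22 (limma adjusted p = 0.000575), and the cohesin subunit gene Stag2 by 0.36 (limma adjusted p = 3.96e-06).

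Cldn12 had the highest level per kilobase of the 5 claudins and rose. It encodes an atypical claudin that lacks the tail motif by which most claudins bind scaffold proteins. Cldn12 (chromosome 5, 5489537 to 5514958, minus strand) stood at 64.3, 71.9, 70.6 and 68.5 normalized reads in GOF samples 1 to 4, against 54.8, 53.7, 51.9 and 48.4 in WT samples 1 to 4. The groups did not overlap, and the log2 change was 0.39 ± 0.05 (SE, limma adjusted p = 1.38e-05). Per kilobase its level was 16.3 in GOF and 12.3 in WT, and that of the other 4 claudins among the members was at most 2.74 in either group. Cldn34c1, an X-linked gene of a multi-copy group whose reads may be shared, was at 8.52, 7.02, 6.59 and 7.60 in GOF samples 1 to 4 and at 7.36, 6.93, 6.18 and 6.21 in WT samples 1 to 4, with overlap and no call (log2 change 0.13, limma adjusted p = 0.296).

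E-cadherin and the claudins Cldn4, Cldn6 and Cldn7 differed more between samples of the same group than between the groups. Cdh1 (chromosome 8, 106603351 to 106670246, plus strand) stood at 4.92, 0.937, 6.89 and 5.60 normalized reads in GOF samples 1 to 4, against 6.30, 1.6, 0.0404 and 5.25 in WT samples 1 to 4. The value of WT sample 3 is the lowest that column holds and corresponds to 0 reads, beside 71 reads in WT sample 4. Cldn6, a claudin of embryonic epithelia, was at 7.43, 0.313, 6.74 and 4.37 in GOF samples 1 to 4, against 6.48, 1.85, 0.0404 and 8.26 in WT samples 1 to 4. GOF sample 2 and WT sample 3 were the lowest of their groups for both genes. The same samples were lowest for Cldn4 and Cldn7, claudins of simple epithelia. Cldn4 was at 0.313 in a GOF range up to 5.82 and 0.605 in a WT range up to 3.93, and Cldn7 at 0.937 in a GOF range up to 2.35 and 0.121 in a WT range up to 2.02. GOF sample 2 had the most reads of all 8 samples and WT sample 3 the fewest.

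None of these 4 genes passed between the groups. The log2 change of Cdh1 was 0.57 with a 95% interval of -1.33 to 2.47 (limma adjusted p = 0.577), and that of Cldn6 was 0.29 with an interval of -1.99 to 2.57 (limma adjusted p = 0.819). For Cldn4 it was 0.43 (limma adjusted p = 0.617) and for Cldn7 0.37 (limma adjusted p = 0.311). Without GOF sample 2 and WT sample 3, a choice made after the data were seen, the changes were 0.46 for Cdh1, 0.67 for Cldn4, 0.28 for Cldn6 and 0.23 for Cldn7, and none passed (limma adjusted p 0.109 to 0.704). Cdh3, the neighbouring gene, ends 46.1 kb before Cdh1 starts and did not share this spread.

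Epithelial markers followed the same samples in part. Of 14 listed, 12 were tested, 6 were higher in GOF and 0 lower, with summed levels of 848 to 1062 in GOF and 230 to 286 in WT. Most of that sum was Krt19, Krt8 and Krt18, and Krt19 also stands in the epicardial list. In 6 of the 12, GOF sample 2 and WT sample 3 were the lowest of their groups, as in 6.42% of all genes. Epcam, an epithelial adhesion protein, was at 5.40, 0.483, 5.58 and 3.61 normalized reads in GOF samples 1 to 4, against 4.64, 2.35, 0.444 and 7.23 in WT samples 1 to 4, with means of 3.77 in GOF and 3.67 in WT. Esrp1, an epithelial splicing factor, was at 3.90, 0.199, 3.51 and 2.44 in GOF samples 1 to 4, against 3.87, 1.35, 0.121 and 4.52 in WT samples 1 to 4, with means of 2.51 in GOF and 2.47 in WT. The keratin gene Krt19 behaved otherwise, at 499.6, 561, 643 and 586.5 in GOF samples 1 to 4, against 77.3, 63.0, 75.0 and 69.8 in WT samples 1 to 4. Of 10 markers of foregut endoderm and liver bud 4 were tested, and 2 were higher and 0 lower. Sox17 (1.42) and Hhex (0.78) rose on the log2 scale without overlap, while Afp and Shh did not pass. The summed level of the 4 was 23.1 to 29.2 in GOF and 10.7 to 49.4 in WT, where Afp gave 39.6 of the top value. Shh was at 0.0284, the value of 0 reads, in GOF sample 2 and at 3.40 to 5.66 in the other GOF samples, and its WT values were 0.0314 to 1.21. Of 10 tested epicardial markers 5 were higher and 0 lower. The part of epithelial cells in the Cdh1 and claudin values was not tested.

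**Figure D3:**
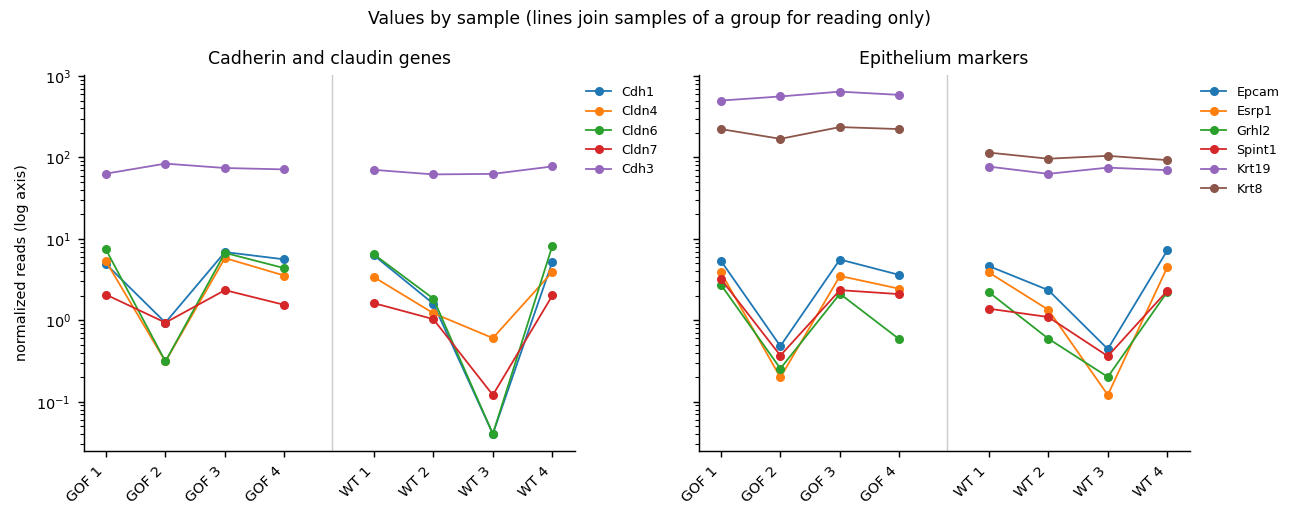
Normalized reads (vertical log axis) by sample for Cdh1, Cldn4, Cldn6, Cldn7 and Cdh3 (left panel) and for 6 epithelial markers (right panel), with GOF samples left of WT samples. Cdh1, the 3 claudins, Epcam, Esrp1, Grhl2 and Spint1 dip in GOF sample 2 and WT sample 3, while Cdh3, Krt19 and Krt8 do not dip in both.

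The promoters of the 3 claudin genes are shown because these genes were lowest in the same samples as Cdh1, whose promoter is the textbook target of the E-box repressors Snai1, Zeb1 and Zeb2. RefSeq windows (GRCm38.p6) matched 14 of the 29 members, and Cdh1 was not among them. Each sequence below is the 250 bases before the most upstream RefSeq start, 5′ to 3′ on the gene's strand, with the E-box CAGGTG on either strand (CACCTG when read on this strand) in capitals. The windows lie at chr5:134946935-134947184 (minus strand) for Cldn4, chr17:23679115-23679364 (plus strand) for Cldn6 and chr11:69964529-69964778 (plus strand) for Cldn7.
Cldn4: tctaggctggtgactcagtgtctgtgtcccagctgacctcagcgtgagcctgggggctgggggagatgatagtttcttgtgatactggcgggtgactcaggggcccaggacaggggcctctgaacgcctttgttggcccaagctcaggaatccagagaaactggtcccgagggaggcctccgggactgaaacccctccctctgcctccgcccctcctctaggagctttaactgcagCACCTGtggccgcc
Cldn6: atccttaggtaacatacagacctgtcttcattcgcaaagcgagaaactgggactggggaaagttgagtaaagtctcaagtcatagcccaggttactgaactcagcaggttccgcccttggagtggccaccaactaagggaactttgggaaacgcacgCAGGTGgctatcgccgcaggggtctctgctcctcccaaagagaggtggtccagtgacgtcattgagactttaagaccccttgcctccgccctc
Cldn7: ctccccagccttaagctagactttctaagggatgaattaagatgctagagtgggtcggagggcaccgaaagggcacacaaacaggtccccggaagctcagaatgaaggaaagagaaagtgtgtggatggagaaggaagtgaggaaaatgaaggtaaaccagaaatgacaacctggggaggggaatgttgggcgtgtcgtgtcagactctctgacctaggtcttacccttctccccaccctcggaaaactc
Cldn4 held 1 match that begins 14 bases before the start, and Cldn6 held 1 that begins 93 bases before it. The Cldn7 window had 0 matches, while the window of a second Cldn7 start held 2. Of all 32851 RefSeq windows of this length 17.2% held a match, and a match describes letters, not binding. The part of these repressors in the low values of Cdh1 and the claudins was not tested.

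The E-cadherin repressors and activators were mostly higher in GOF, although Cdh1 itself had no call. Of 14 tested, 10 were higher and 1 was lower, with a median log2 change of 0.36. Zeb1, a zinc finger repressor of Cdh1, stood at 96.4, 105.5, 105.7 and 95.2 normalized reads in GOF samples 1 to 4, against 76.9, 79.6, 79.5 and 70.3 in WT samples 1 to 4 (log2 change 0.39, limma adjusted p = 1.42e-05). Its relative Zeb2 rose by 0.26 (limma adjusted p = 0.0028). Snai1 rose by 0.32 (limma adjusted p = 0.0382). This missed the threshold in fits that left out GOF sample 2, 3 or 4 or WT sample 1 or 3 (limma adjusted p 0.0516 to 0.134), and without WT sample 3 the rise was 0.18. On the activating side Grhl1, an epithelial grainyhead factor, rose by 1.33 (limma adjusted p = 6.78e-08) and Klf4 by 0.80 (limma adjusted p = 1.19e-05). The Grhl1 relatives Grhl2 (0.05, limma adjusted p = 0.93) and Grhl3 (-0.24, limma adjusted p = 0.111) did not pass. All GOF values of Grhl3 lay below all WT values. Esrp1 did not pass either (0.09, limma adjusted p = 0.92), while Esrp2 rose by 0.40 (limma adjusted p = 0.0177).

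Of 8 tested catenins and their associates, the cytoplasmic partners of cadherins, 5 were higher and 0 lower, with a median log2 change of 0.27. Ctnnb1 (beta-catenin), which also carries Wnt signals, stood at 807, 890.3, 888 and 833 normalized reads in GOF samples 1 to 4, against 932, 927.5, 912 and 880.3 in WT samples 1 to 4. Its log2 change of -0.10 did not pass (limma adjusted p = 0.0772), but it did without GOF sample 2 (-0.12, limma adjusted p = 0.041). Jup (plakoglobin), which can replace beta-catenin at cadherin tails, rose by 0.47 (limma adjusted p = 2.72e-07), and Ctnna1 (alpha-catenin) by 0.27 (limma adjusted p = 0.000205). Afdn (afadin), which ties nectins to actin, rose by 0.30 (limma adjusted p = 0.000126). Ctnnd1 (p120-catenin), which keeps cadherins at the surface, had a log2 change of 0.04 with a 95% interval of -0.08 to 0.15 (limma adjusted p = 0.601).

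Genes of neighbouring junctions moved both ways. In the desmosome list 2 of 5 tested genes were higher and 2 lower. The desmosomal cadherin gene Dsc2 (desmocollin 2) stood at 32.1, 38.4, 34.2 and 32.5 normalized reads in GOF samples 1 to 4, against 77.9, 77.6, 80.4 and 72.5 in WT samples 1 to 4, a log2 change of -1.15 (limma adjusted p = 3.72e-10). Dsg2 (desmoglein 2), also a desmosomal cadherin gene, was at 65.07, 74.45, 73.36 and 68.87 in GOF samples 1 to 4 and 79.11, 74.55, 75.35 and 76.79 in WT samples 1 to 4. All GOF values of Dsg2 lay below all WT values, but the log2 change of -0.12 did not pass (limma adjusted p = 0.0546). Pkp2, the plakophilin of heart desmosomes, rose by 0.52 and Pkp4 changed by -0.29. Of 7 nectin-related genes 3 were higher and 2 lower. Those with the smallest p were Pvr (0.94), Cadm1 (-0.60) and Nectin2 (0.46), and Cadm4 also rose (0.78). The desmosome median was -0.12 and the nectin median -0.09.

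Tight junction proteins other than claudins were higher in 10 of 20 and lower in 2, with a median log2 change of 0.29. Tjp3, among the higher, met the table's minimum in every GOF sample but not in every WT sample, so its call is limited by that. The scaffold gene Tjp1 (ZO-1), to which most claudins bind, stood at 302, 355, 357.5 and 319 normalized reads in GOF samples 1 to 4, against 275, 259, 265 and 263 in WT samples 1 to 4 (log2 change 0.32, limma adjusted p = 9.39e-05). Mpp5 (0.54) and Magi3 (0.50), both scaffolds, and F11r (0.36), the junctional adhesion molecule A gene, rose too. Ocln (occludin), a strand protein of epithelia, was at 1.28 to 2.50 in GOF and 1.01 to 2.16 in WT and did not pass (limma adjusted p = 0.34).

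Among 11 tested genes of the large cadherin superfamily 4 were higher and 2 lower (median 0.01). Clstn2, a calsyntenin, rose by 0.90, Fat4, a planar polarity cadherin, rose by 0.71, and Celsr2, a flamingo cadherin, changed by -0.59. Of 10 genes for cadherin proteolysis and turnover 3 were higher and 2 lower (median -0.01). Numb, an endocytic adaptor, rose by 0.38 and the gelatinase gene Mmp2 by 0.36, while its activator Mmp14 changed by -0.30. In limma the largest adjusted p among these 6 was 0.0017. Cdhr4, also among the higher genes of the large cadherin superfamily, met the table's minimum in every GOF sample but not in every WT sample. Its call is limited by that.

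**Figure D4:**
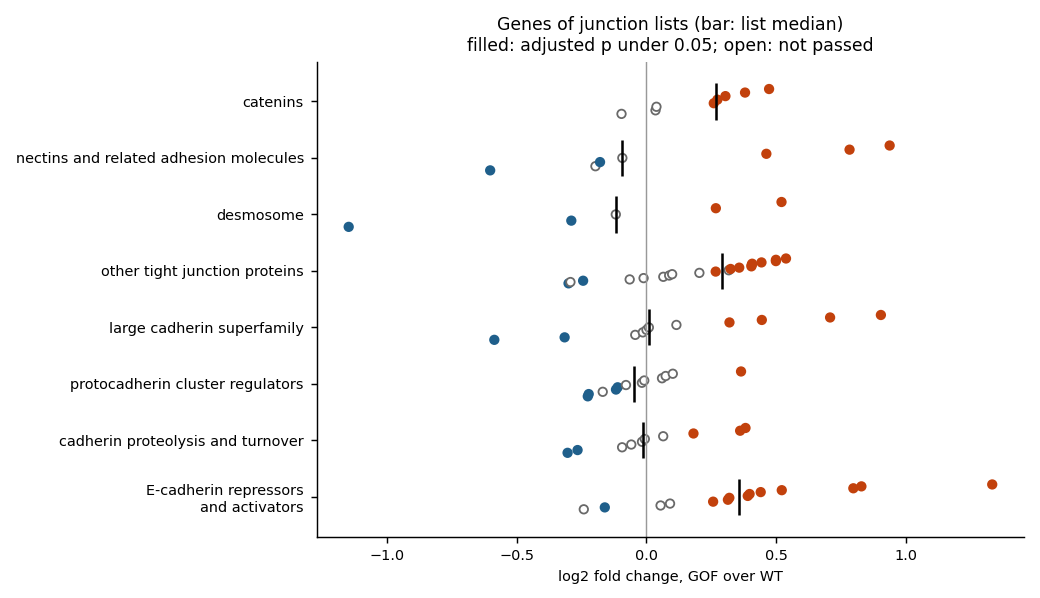
Log2 fold change (GOF over WT, horizontal axis) of each tested gene in 8 lists of junction and regulator genes, with black bars at list medians and filled points for genes that passed. Dsc2 lies lowest at -1.15 and Grhl1 highest at 1.33, and the catenin list has 0 filled points below 0.

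Other gene groups also differed between GOF and WT hearts. All 14 hypoxia response genes and all 8 tested immediate early genes were higher in GOF, with summed levels of 13000 to 14350 in GOF against 5985 to 6520 in WT for the hypoxia genes and 371 to 416 in GOF against 152 to 170 in WT for the immediate early genes. Of 10 erythroid genes 0 passed in limma, with 0 at an unadjusted p under 0.05, and their summed level was 2688 to 14870 in GOF and 2621 to 7416 in WT. Among 7 genes of white blood cells and platelets there were 1 higher and 2 lower, with summed levels of 37.1 to 164 in GOF and 35.9 to 41.7 in WT. Mrc1, among the lower, was at 0.424 to 1.46 in GOF and 2.97 to 3.67 in WT. It met the table's minimum on the WT samples alone, so its call is limited by that. Of 5 neural crest genes 0 were higher in limma and 1 was lower, with summed levels of 119 to 150.2 in GOF and 149 to 163 in WT. The part of these groups in the changes of cadherin, protocadherin and claudin genes was not tested.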

How the data were processed

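The deposited table gives 8 samples and 13637 genes by Ensembl ID, and its values are normalized counts (a signal with no value below 0) as the authors made them. Per the submitters' processing notes, CASAVA 1.8.2, cutadapt 1.6, FastQC, RSEM 1.2.3 and the GRCm38 build were used, the notes giving them no order. How values were normalized is not given in the sources used here, nor is the annotation release or the strand setting. In each deposited column every value equalled a whole number plus 0.5 divided by a single scale, to within 0.01 of a read, and columns summed to 984298 to 1020939. No pair of samples of a group agreed within sampling noise (chi-square per degree of freedom 3.48 to 19.0).

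Symbols came from GENCODE M21, which matched 13554 of the 13637 IDs. The main test was limma 3.58.1 (R 4.3.3) on log2(value + 1) with an intensity trend and robust prior, no covariate, two-sided, with Benjamini-Hochberg adjustment over all genes and no further filter. The pseudocount makes fold changes of low genes too small. The code of the fit was checked on simulated counts with the same spread setting for every gene and few changed genes. These data differ in both, so that check does not give the error rate here. No count model was run, since the values are scaled and carry an added 0.5 read, and a separate check for whole reads failed in GOF samples 1, 2 and 4. Read numbers given are therefore inferred from the steps of the values. Levels between genes are compared only per kilobase of the union of annotated exons. Replicate numbers did not pair the samples.

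The members and gene lists were chosen with earlier results of these data known. Named genes are the cadherins Cdh1, Cdh2, Cdh3, Cdh4, Cdh11 and Cdh13, up to 6 members per family that passed with the largest change, the 2 highest members per family that did not pass, and the 3 genes of each partner list with the smallest p, besides a few standard junction genes. Other members and markers named, such as Cdh24, Cldn4, Cldn7, Epcam, Esrp1 and Krt19, were given to account for all members or were chosen after their values were seen. Alternatives were other pseudocounts, filters, normalizations, priors, a replicate term and leaving out samples.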

Additional observations from a re-analysis of the deposited data

Results flagged for a closer look

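In 126 groups of 4 samples checked, covering the members and the named partner genes, 2 held a sample far from the other samples of its group, where chance alone gives about 5% of groups. Pcdhb17 stood at 0.698 normalized reads in WT sample 4, with the nearest WT sample at 1.57. Numb stood at 42.3 normalized reads in WT sample 4, with the nearest WT sample at 44.8.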

How the results depend on the processing

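Over 17 alternatives the number of members that passed stayed between 9 and 13 of at most 29, and the number over all genes between 6826 and 7807. The lowest of these came from the filter on a mean of at least 5, which tested 11123 genes and 16 members. Leaving out each sample in turn gave 10 to 13 members and 6983 to 7667 genes. No member or named partner gene that passed in any fit changed direction, and 23 of 29 members and 31 of 34 partner genes kept their side of the threshold in every fit in which they were tested. The members that did not were Cdh4, Cdh11, Cdh24, Pcdh7, Pcdhb19 and Pcdhgc4, and the partner genes were Cdh5, Ctnnb1 and Snai1. Cdh24 also missed the threshold without the trend and robust prior (adjusted p = 0.055), and Cdh11 passed at equal column totals without mitochondrial genes (-0.18, adjusted p = 0.0199). Ctnnb1 passed there (-0.16, adjusted p = 0.00331) and with quantile normalization (-0.14, adjusted p = 0.0295), and Snai1 was lost in both (adjusted p = 0.087 and 0.1). With the replicate number as a block 11 members and 7355 genes passed, and Snai1 was lost (adjusted p = 0.0612). The numbers did not pair the samples, as deviations of same-numbered samples correlated at -0.137 to 0.007. At equal column totals without mitochondrial genes 40.2% of called genes were higher, against 50% in the reported fit, and the median log2 change of all genes was -0.062. Members under 3 normalized reads rest on few reads, so a missed threshold there does not show that levels were equal.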
